A study of Mus musculus with 12 samples.

Results

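The genes of the proteasome, the protease complex that degrades ubiquitin-tagged proteins, were followed in the plantaris of mice with and without REDD1 after a single bout of exercise. Members were all genes whose symbol begins with Psm, a letter from a to g and a digit, taken from array rows annotated with a single gene symbol, with the highest-mean row kept where a gene had several. This rule found 49 genes in 52 rows, of 22180 genes on the array with such a row. Psmc3ip and Psme3ip1 are named for proteins that interact with proteasome subunits and are not part of the complex, which left 47 proteasome genes. Psma4, a subunit of the outer core ring, was outside the rule because its rows carry 2 symbols each.

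Each of 12 Affymetrix whole-transcript arrays measured total RNA from the plantaris, a fast-twitch calf muscle, of a male mouse aged 12 weeks. There were 4 groups of 3 arrays: REDD1 knockout mice taken 1 h after a bout of aerobic exercise, sedentary REDD1 knockout mice, wild-type mice taken 1 h after the same kind of bout, and sedentary wild-type mice. Every mouse had food withheld for 3 h and was anaesthetised with isoflurane before the muscle was removed and frozen. REDD1, encoded by Ddit4, is a stress-induced protein that restrains the growth-promoting kinase complex mTORC1. The labels give neither the strain nor the form of the deletion, and they mention no pooling. Nothing in them states separate litters or experiment days. The p-values weigh group differences against the spread between these samples. An effect of litter or day that ran with the groups could not be told apart from them.

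The 26S proteasome consists of a barrel-shaped 20S core, built from rings of alpha and beta subunits, and a 19S regulatory particle at its ends. The 19S base holds the ATPases that unfold substrates and the subunits that bind ubiquitin chains or their carriers, and the lid holds the deubiquitinase that removes the chains. Other caps can replace the 19S particle, immune beta subunits can replace the catalytic ones, and dedicated chaperones assemble both parts. In skeletal muscle this pathway does much of the breakdown of contractile protein, fed by the muscle ubiquitin ligases Trim63 and Fbxo32.

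Values were the authors' deposited expression levels, read as log2. Levels lay between 0.357 and 13.9 over the table, array medians between 4.52 and 4.60, and pairwise correlations between arrays from 0.967 to 0.985 over all rows. A gene was tested if it lay above the table median, 4.56, on at least 3 arrays, which 13747 genes did. Ddit4 levels were 6.46, 5.72 and 6.77 on the log2 scale in exercised knockout muscle and 5.32, 5.44 and 5.08 in sedentary knockout muscle, against 9.05, 8.40 and 8.62 in exercised wild-type and 6.13, 5.83 and 6.02 in sedentary wild-type muscle. Every knockout array lay below every wild-type array of the same condition, although where the probes lie relative to the deleted part of the gene is not known. The 8 skeletal muscle marker genes were all above the table median on all 12 arrays, and Acta1, the skeletal alpha-actin gene, lay between 13.49 and 13.65 on the log2 scale. A pair of arrays, called those that stood apart below, was picked by other markers. Replicate 3 of the sedentary knockouts had a mean level of 9 extracellular matrix genes 1.04 above their 12-array mean. Replicate 1 of the exercised wild types had the highest mean level of 4 Schwann cell genes, 0.88 above it. It was not alone in this: replicate 3 of the sedentary knockouts was at 0.81 and replicate 2 of the exercised knockouts at 0.68. The larger changes that leaving out either array of the pair made to the member counts are given beside those counts.

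Of the 47 proteasome genes, 44 were tested, and 42 were above the table median on every array. Psma8, a testis subunit of the core, lay between 3.21 and 4.24 on the log2 scale, and Psmb11, the thymus-specific catalytic subunit, between 3.74 and 4.44, so neither was above the median on any array. Psma5, a general subunit of the alpha ring, had rows with mean log2 levels of only 4.03 and 3.95. Its higher row was above the median on 2 arrays, at 4.67 in an exercised knockout and 5.05 in a sedentary wild type. Psmb9 and Psmg4 were closest to the threshold among the tested genes, each above the median on 8 arrays. The within-group standard deviation of the tested members had a median of 0.119 on the log2 scale, with a range of 0.0624 to 0.267. Over all genes tested its median was 0.163. The members also had higher levels, with a median of 7.996 on the log2 scale against 6.19 over all genes tested. The shares of all genes tested that are given below were not matched to the members for level or spread. The part of level and spread in the differences between these shares was not tested.

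No proteasome gene passed the test at an adjusted p under 0.05 in any of the 7 comparisons drawn from the limma fit. For knockout against wild type after exercise, 0 of 44 were called against 0.175% of all genes tested, and the smallest adjusted p was 0.202. For exercise in knockout muscle, 0 of 44 were called against 0.276%, with a smallest adjusted p of 0.248. The count was also 0 of 44 for exercise in wild-type muscle, where 0.567% of all genes were called, and for knockout against wild type in sedentary muscle, where 0.138% were. Averaged over genotypes, exercise gave 0 of 44 against 1.6%, and knockout averaged over conditions gave 0 of 44 against 0.546%. The difference between the exercise effects, knockout minus wild type, was called for 0% of all genes tested. An ordinary linear model without moderation of the variances also called 0 of 44 in each comparison. The median standard error of a member's difference between groups was 0.105 on the log2 scale, and the 95% intervals of all members lay between −0.66 and 0.69 for exercise in knockouts and between −0.56 and 0.61 for exercise in wild types.

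The group means nevertheless had an uneven order. The highest of the 4 group means was that of exercised knockouts for 29 of 44 members (65.9%), compared with 23.9% of all genes tested. It was that of sedentary knockouts for 7 (15.9% against 24.1% of all genes), of exercised wild types for 3 (6.82% against 20.9%) and of sedentary wild types for 5 (11.4% against 31.1%). Without both arrays that stood apart, exercised knockouts held the highest mean for 21 of 44 members against 20.4% of all genes. Leaving out replicate 1 of the exercised knockouts gave 23 of 44 against 29.3%.

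Array by array, 38, 28 and 31 of the 44 members were above their own 12-array mean in exercised knockout muscle and 30, 16 and 9 in sedentary knockout muscle, against 11, 23 and 25 in exercised wild-type and 17, 25 and 17 in sedentary wild-type muscle. The mean level of the members, relative to each gene's 12-array mean on the log2 scale, was 0.10, 0.05 and 0.04 in exercised knockouts and 0.07, −0.04 and −0.08 in sedentary knockouts, against −0.06, −0.01 and 0.02 in exercised wild types and −0.05, 0.01 and −0.05 in sedentary wild types. Exercised knockouts overlapped neither wild-type group on this mean, but a sedentary knockout array lay among them. The lowest proteasome level was that of the sedentary knockout array with the high matrix level, which also had a macrophage marker level of 0.36. The second lowest was that of the exercised wild-type array with the highest Schwann cell level. Replicate 2 of the exercised knockouts, with a Schwann cell level of 0.68, had a proteasome level of 0.05. The part of these marker levels in the result was not tested. In whole muscle, fewer cells of a type and less RNA per cell cannot be told apart.

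**Figure D1:**
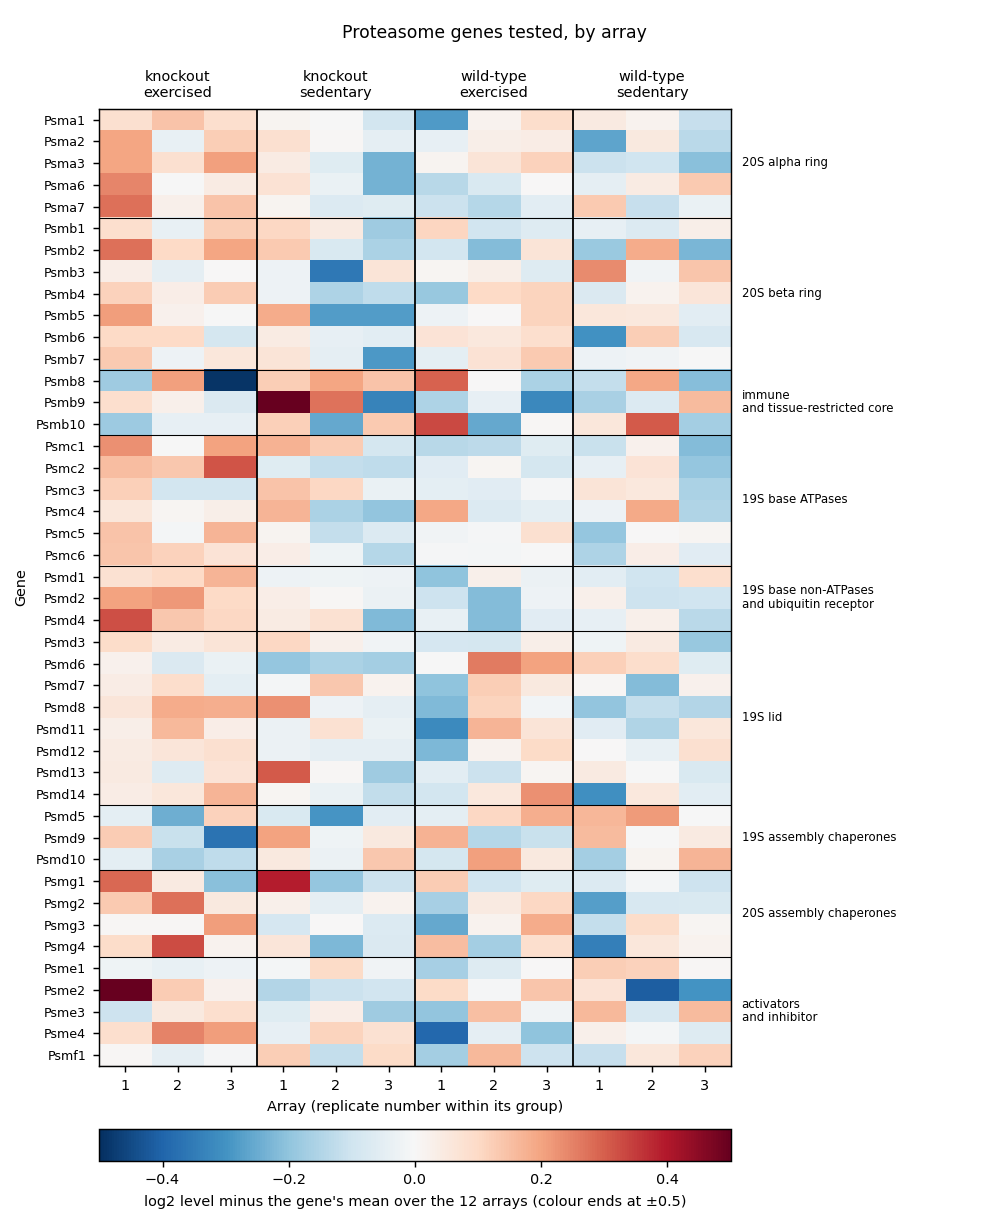
Log2 level of each of the 44 tested proteasome genes relative to its own mean over 12 arrays (colour), with genes in rows by subcomplex and arrays in columns by group. Exercised knockout arrays are mostly above the mean (38, 28 and 31 of 44 genes), and sedentary knockout replicate 3 has the fewest genes above it (9).

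The comparison of knockout with wild type after exercise asks whether loss of REDD1 alters the muscle's transcripts once it has worked. The difference was positive for 37 of 44 members (84.1%, against 49.3% of all genes tested), with a median of 0.09 on the log2 scale against −0.002 for all genes. At an unadjusted p under 0.05, 8 members were higher (18.2% against 3.17% of all genes) and 0 lower (against 3.41%). For 10 members every exercised knockout array was above every exercised wild-type array (22.7% against 6.06%): Psme4, Psmd2, Psmd4, Psmc2, Psma7, Psmc1, Psmb2, Psmd1, Psmc6 and Psmd3. None was below without overlap, against 5.67% of all genes. The 10 became 16 of 44, against 11% of all genes, without replicate 3 of the exercised wild types. They became 16 of 44, against 10.2%, without replicate 2 of the exercised knockouts. They became 12 of 44, against 10.8%, without replicate 1 of the exercised wild types. They became 11 of 44, against 12%, without replicate 1 of the exercised knockouts. The 8 became 3 without replicate 1 of the exercised knockouts (against 3.04% of all genes) and 4 without their replicate 3 (2.58%). They became 5 without either replicate 1 or 2 of the exercised wild types (2.94% and 3.01%). Without replicate 1 of the exercised wild types, 31 of 44 differences were positive and the median was 0.06, against −0.03 for all genes. After quantile normalisation, 34 were positive with a median of 0.06, against −0.007 for all genes. At an unadjusted p under 0.05, 6 were then higher (against 3.14%) and 1 lower (against 3.94%). With each array centred on its median, 34 were positive with a median of 0.08, against −0.01 for all genes. Here 6 were higher (against 2.65%) and 0 lower (against 3.39%).

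Exercise in knockout muscle, which shares the exercised knockout arrays with that comparison, gave a positive difference for 34 of 44 members, against 49.4% of all genes, and a median of 0.10 against −0.002 on the log2 scale. At an unadjusted p under 0.05, 3 members were higher (6.82% against 4.31%) and 0 lower (against 4.61%). Exercised arrays were above sedentary arrays without overlap for 15 members (34.1% against 7.13%): Psmc2, Psma3, Psme2, Psmd4, Psmd2, Psma7, Psmb4, Psmc6, Psmd1, Psmd6, Psmg2, Psma1, Psmd14, Psmd12 and Psmg3. Only Psmd10 and Psme1 lay below without overlap (4.55% against 6.77%). Without replicate 3 of the sedentary knockouts, 31 of 44 differences were positive, the median was 0.08, and 15 members were still above without overlap, against 11.9% of all genes. Without replicate 1 of the sedentary knockouts, that count became 24 of 44, against 14.2% of all genes. The 3 members higher at an unadjusted p under 0.05 became 6 without replicate 1 of the sedentary knockouts (against 4.66% of all genes). They became 5 without replicate 1 of the exercised wild types (4.92%) and 2 without replicate 3 of the sedentary knockouts (3.96%).

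Endothelial and extracellular matrix markers had mostly negative differences in the same comparison. Of the 4 Schwann cell genes, 2 were positive and 2 negative, with a median of 0.05 on the log2 scale. All 8 endothelial genes were negative for exercise in knockouts, with a median of −0.31 on the log2 scale, 4 at an unadjusted p under 0.05 and 1 called, and their mean level ranged from −0.30 to −0.06 in exercised knockouts and from 0.10 to 0.21 in sedentary knockouts. Of the 9 extracellular matrix genes, 8 were negative, with a median of −0.53, 6 at an unadjusted p under 0.05 and 0 called, and their mean level ranged from −0.31 to −0.18 in exercised knockouts and from −0.19 to 1.04 in sedentary knockouts. In wild types the exercise median was −0.23 for the endothelial genes, with 1 called, and 0.10 for the matrix genes. The part of these cell types in the proteasome differences was not tested.

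In wild-type muscle, the members had exercise differences on both sides of 0. The difference was positive for 23 of 44, against 45% of all genes, and its median was 0.006 on the log2 scale against −0.019 for all genes. At an unadjusted p under 0.05, 1 member was higher (2.27% against 3.95%) and 0 lower (against 4.26%). With single arrays left out, the higher count lay between 0 and 2, against 3.22% to 4.57% of all genes. Psma3 alone was higher without overlap (background 5.75%), and Psme1 alone lower (background 7.14%). The difference between the exercise effects, knockout minus wild type, was positive for 32 of 44 members, against 53.2% of all genes, with a median of 0.08 against 0.02 on the log2 scale. Its unadjusted p was under 0.05 for 2 members on the higher side (4.55% against 2.15%) and 0 on the lower (against 2.36%), and its smallest adjusted p was 0.997. Without both arrays that stood apart, 24 of 44 were positive and the median was 0.03, against −0.009 for all genes. The count of 2 then became 0, against 2.02% of all genes. Without replicate 1 of the sedentary knockouts the count became 4 (against 2.42%) and the median 0.13. The count became 0 without replicate 1 of the sedentary wild types (against 1.69%) or replicate 3 of the exercised knockouts (against 1.6%).

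In sedentary muscle, knockout against wild type gave positive differences for 27 of 44 members, against 46% of all genes, with a median of 0.02 against −0.01 for all genes on the log2 scale. At an unadjusted p under 0.05, 0 were higher (against 3.32%) and 2 lower (4.55% against 4.38%). Psmd8 and Psmg2 were higher without overlap (background 5.35%), and Psmd6 and Psmd5 lower (background 7.73%). These counts moved with single arrays. Without replicate 1 of the sedentary knockouts, 15 of 44 differences were positive and the median was −0.03. Without replicate 3 of the sedentary knockouts, 28 were positive and 3 were higher at an unadjusted p under 0.05 (against 2.92% of all genes). The 2 lower became 0 without replicate 1 of the sedentary wild types (against 3.38%) or replicate 2 of the sedentary knockouts (against 3.48%). The 9 matrix genes were all positive in this comparison, with a median of 0.33 on the log2 scale and 0 called, and their part was not tested.

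The averages use 6 arrays per side. Exercise averaged over genotypes gave a positive difference for 32 of 44 members, against 45.7% of all genes, and an unadjusted p under 0.05 for 3 on the higher side (6.82% against 5.22%) and 0 on the lower (against 5.99%). Psma3, Psme2 and Psmc2 were those 3. They became 8 of 44 without replicate 1 of the exercised wild types (against 6.7% of all genes). Leaving out replicate 1 of the sedentary knockouts gave 6 (against 5.33%), and replicate 2 of the sedentary wild types 5 (against 5.24%). Knockout averaged over conditions was positive for 32 of 44, against 47.4%, with 4 members higher at an unadjusted p under 0.05 (9.09% against 4.18%) and 2 lower (4.55% against 5.18%). Psme4, Psmd2, Psmc1 and Psmd8 were on the higher side, and Psmd6 and Psmd5 on the lower. With single arrays left out, the higher count lay between 4 and 6, against 3.53% to 4.52% of all genes. It was 6 without replicate 3 of the sedentary knockouts or replicate 2 of the sedentary wild types. The lower count lay between 1 and 2, against 3.98% to 7.98%.

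**Figure D2:**
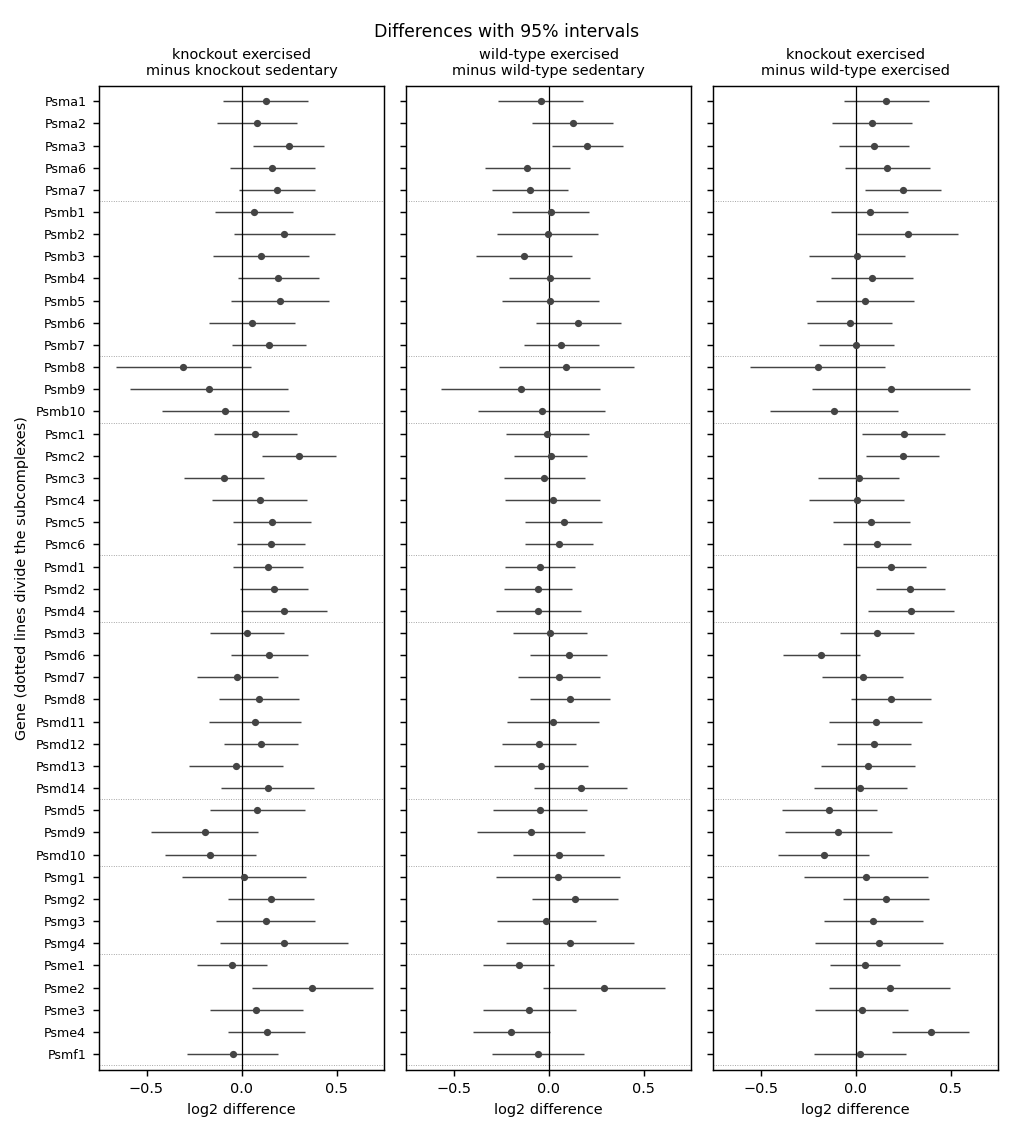
Log2 difference of each tested proteasome gene (points) with its 95% interval from the limma fit (bars), in 3 comparisons side by side, with genes grouped by subcomplex. Most points are right of 0 for exercise in knockouts (34 of 44) and for knockout against wild type after exercise (37 of 44), and 23 of 44 are for exercise in wild types.

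Among the outer ring of the 20S core, whose alpha subunits gate the entry of substrate, 5 of 6 genes were tested. All 5 had a positive exercise difference in knockouts (median 0.16 on the log2 scale), and in wild types the median was −0.04. Psma3 had log2 levels of 9.98, 9.87 and 9.99 in exercised knockout and 9.83, 9.72 and 9.55 in sedentary knockout muscle, against 9.80, 9.85 and 9.90 in exercised wild-type and 9.68, 9.69 and 9.58 in sedentary wild-type muscle. In both genotypes the exercised arrays were above the sedentary ones without overlap. The log2 difference was 0.25 (SE 0.088, adjusted p = 0.365) in knockouts and 0.20 (SE 0.088, adjusted p = 0.571) in wild types. Averaged over genotypes it was 0.22 (SE 0.062, n = 6 per side), and its adjusted p of 0.0985 was the smallest of any member in any comparison. Psma7 had log2 levels of 9.17, 8.91 and 9.03 in exercised knockout and 8.90, 8.82 and 8.83 in sedentary knockout muscle, against 8.78, 8.75 and 8.84 in exercised wild-type and 9.02, 8.77 and 8.86 in sedentary wild-type muscle. Exercised knockouts were above sedentary knockouts and exercised wild types without overlap, but overlapped sedentary wild types. After exercise the knockout was 0.25 above wild type (SE 0.094, adjusted p = 0.598), and the exercise difference was 0.28 larger in knockouts than in wild types (SE 0.133, adjusted p = 0.997). The exercise differences of the others in knockouts were 0.13 for Psma1, 0.08 for Psma2 and 0.16 for Psma6 on the log2 scale, and in wild types Psma1 was at −0.04, Psma2 at 0.13 and Psma6 at −0.11.

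The inner beta ring carries the 3 proteolytic sites. All 7 of its genes were tested, and all 7 had a positive exercise difference in knockouts, with a median of 0.14 on the log2 scale, against 5 of 7 and a median of 0.01 in wild types. Psmb5, the chymotrypsin-like subunit and the target of the inhibitor bortezomib, had log2 levels of 8.44, 8.26 and 8.23 in exercised knockout and 8.42, 7.95 and 7.95 in sedentary knockout muscle, against 8.21, 8.23 and 8.34 in exercised wild-type and 8.29, 8.29 and 8.18 in sedentary wild-type muscle. A pair of sedentary knockout arrays was low and the other was among the highest, so the groups overlapped. Psmb6, the caspase-like subunit, had log2 levels of 8.80, 8.81 and 8.61 in exercised knockout and 8.74, 8.66 and 8.65 in sedentary knockout muscle, against 8.77, 8.76 and 8.79 in exercised wild-type and 8.40, 8.83 and 8.62 in sedentary wild-type muscle. Psmb7, the trypsin-like subunit, had log2 levels of 10.78, 10.62 and 10.70 in exercised knockout and 10.71, 10.60 and 10.36 in sedentary knockout muscle, against 10.60, 10.72 and 10.78 in exercised wild-type and 10.62, 10.63 and 10.65 in sedentary wild-type muscle. For Psmb6 and Psmb7, exercised and sedentary arrays overlapped in both genotypes, as did knockout and wild-type arrays in both conditions. The exercise differences in knockouts were 0.20 for Psmb5, 0.05 for Psmb6 and 0.14 for Psmb7 on the log2 scale.

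Psmb3, a structural beta subunit, had log2 levels of 6.02, 5.94 and 5.99 in exercised knockout and 5.96, 5.63 and 6.05 in sedentary knockout muscle, against 5.998, 6.02 and 5.92 in exercised wild-type and 6.22, 5.97 and 6.13 in sedentary wild-type muscle. Sedentary knockouts overlapped sedentary wild types, with a log2 difference of −0.22 (SE 0.118, adjusted p = 0.704), which was −0.10 without the lowest array, replicate 2 of the sedentary knockouts. Psmb2, another beta subunit without a proteolytic site, had a log2 difference of 0.27 between exercised knockouts and exercised wild types, without overlap (adjusted p = 0.742). Psmb4, whose incorporation is a step in the assembly of the ring, was 0.19 higher in exercised than in sedentary knockouts, without overlap (adjusted p = 0.626), and 0.09 higher than in exercised wild types. Psmb1 had an exercise difference of 0.06 in knockouts and 0.01 in wild types.

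The immune catalytic subunits are induced by interferon and replace the standard ones in antigen-processing cells. All 3 tested genes of this group had a negative exercise difference in knockouts (median −0.17 on the log2 scale). For knockout against wild type, 2 were positive and 1 negative in sedentary muscle (median 0.20). After exercise, 1 was positive and 2 negative (median −0.12). Psmb8, the counterpart of Psmb5, had log2 levels of 5.62, 6.003 and 5.31 in exercised knockout and 5.92, 5.997 and 5.94 in sedentary knockout muscle, against 6.09, 5.80 and 5.64 in exercised wild-type and 5.68, 5.99 and 5.59 in sedentary wild-type muscle. Psmb9, the counterpart of Psmb6, had log2 levels of 4.79, 4.73 and 4.64 in exercised knockout and 5.32, 4.98 and 4.37 in sedentary knockout muscle, against 4.55, 4.67 and 4.39 in exercised wild-type and 4.54, 4.64 and 4.86 in sedentary wild-type muscle. Psmb10, the counterpart of Psmb7, had log2 levels of 6.70, 6.84 and 6.84 in exercised knockout and 6.996, 6.62 and 7.01 in sedentary knockout muscle, against 7.21, 6.62 and 6.88 in exercised wild-type and 6.93, 7.18 and 6.71 in sedentary wild-type muscle. Replicates of a group differed as much as the groups did, and every pair of groups compared overlapped for all 3 genes. The exercise difference in knockouts was −0.31 for Psmb8 (SE 0.166, adjusted p = 0.645), −0.17 for Psmb9 and −0.09 for Psmb10.

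Immune markers and the mean level of these subunits were high together on a single array, but not throughout. The array with the highest mean level of the immune subunits, replicate 1 of the sedentary knockouts at 0.29 above their 12-array mean on the log2 scale, also had interferon-stimulated genes at 0.26 and macrophage and leukocyte genes at 0.20. Of the subunits, only Psmb9 had its highest value there, at 5.32. Psmb8 (5.92 there) and Psmb10 (6.996 there) were highest in replicate 1 of the exercised wild types, at 6.09 and 7.21. Replicate 3 of the sedentary knockouts had the highest macrophage and leukocyte level, 0.36, with the immune subunits at −0.02. The next highest levels of the immune subunits, 0.16 in replicate 1 of the exercised wild types and 0.14 in replicate 2 of the sedentary wild types, came with interferon-stimulated genes at 0.03 and −0.06 and macrophage and leukocyte genes at 0.04 and −0.07. The 10 tested interferon-stimulated genes had a median exercise difference of −0.17 in knockouts, and their mean level ranged from −0.16 to 0.04 in exercised knockouts and from 0.03 to 0.26 in sedentary knockouts. The 11 tested macrophage and leukocyte genes had a median of −0.19, with mean levels from −0.15 to −0.02 in exercised knockouts and from −0.18 to 0.36 in sedentary knockouts, and 9 of the 12 listed were above the table median on every array. Their part in the level of the immune subunits was not tested.

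The 6 ATPases of the 19S base had a median exercise difference of 0.12 in knockouts (5 of 6 positive) and of 0.02 in wild types on the log2 scale. Psmc2 had log2 levels of 9.34, 9.32 and 9.50 in exercised knockout and 9.12, 9.06 and 9.06 in sedentary knockout muscle, against 9.13, 9.20 and 9.10 in exercised wild-type and 9.14, 9.25 and 8.99 in sedentary wild-type muscle. The 3 exercised knockout arrays lay above the other 9 arrays. The exercise difference in knockouts was 0.30 (SE 0.090, adjusted p = 0.248), the smallest adjusted p of that comparison, and the difference from wild type after exercise was 0.25 (SE 0.090, adjusted p = 0.581). The exercise difference was 0.29 larger in knockouts than in wild types (SE 0.128, adjusted p = 0.997). Psmc1, the ATPase next to it in the ring, had log2 levels of 8.58, 8.35 and 8.55 in exercised knockout and 8.52, 8.48 and 8.26 in sedentary knockout muscle, against 8.21, 8.22 and 8.29 in exercised wild-type and 8.24, 8.37 and 8.13 in sedentary wild-type muscle. Its knockout mean was the higher in both conditions, without overlap only after exercise, and the genotype difference averaged over conditions was 0.21 (SE 0.073, adjusted p = 0.314, n = 6 per side). Psmc3 was the ATPase with a negative exercise difference in knockouts, −0.09 on the log2 scale, and Psmc4, Psmc5 and Psmc6 had 0.09, 0.16 and 0.15.

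The 3 other base subunits form the platform that receives substrates: Psmd2 and Psmd1 are the large scaffold subunits and Psmd4 is a ubiquitin receptor. All 3 were above wild type in exercised knockout muscle at an unadjusted p under 0.05, with a median difference of 0.29 on the log2 scale, and in sedentary muscle their median was 0.02. The difference between the exercise effects, knockout minus wild type, had a median of 0.22. In the limma fit, 0 of 3 had an unadjusted p under 0.05 for it (smallest adjusted p = 0.997). Psmd2 had log2 levels of 9.45, 9.47 and 9.35 in exercised knockout and 9.28, 9.25 and 9.22 in sedentary knockout muscle, against 9.15, 9.03 and 9.22 in exercised wild-type and 9.27, 9.14 and 9.15 in sedentary wild-type muscle. Psmd4 had log2 levels of 8.53, 8.35 and 8.32 in exercised knockout and 8.26, 8.29 and 7.99 in sedentary knockout muscle, against 8.18, 7.995 and 8.16 in exercised wild-type and 8.17, 8.24 and 8.08 in sedentary wild-type muscle. For both genes the exercised knockout arrays lay above all 9 others. After exercise the knockout was above wild type by 0.29 for Psmd2 (SE 0.084, adjusted p = 0.361), by 0.29 for Psmd4 (SE 0.106, adjusted p = 0.58) and by 0.18 for Psmd1 (adjusted p = 0.754).

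The 8 lid genes that the symbol rule took in had medians of 0.08 for exercise in knockouts and 0.04 for exercise in wild types on the log2 scale. For knockout against wild type after exercise the median was 0.08. Psmd6, a structural lid subunit, had log2 levels of 8.15, 8.06 and 8.10 in exercised knockout and 7.94, 7.97 and 7.96 in sedentary knockout muscle, against 8.13, 8.39 and 8.33 in exercised wild-type and 8.25, 8.22 and 8.07 in sedentary wild-type muscle. Sedentary knockouts were below sedentary wild types without overlap, by a log2 difference of −0.22 (SE 0.094, adjusted p = 0.585), and averaged over conditions the knockout difference was −0.20 (SE 0.067, adjusted p = 0.287, n = 6 per side). Psmd8, another lid subunit, had log2 levels of 10.20, 10.33 and 10.32 in exercised knockout and 10.37, 10.12 and 10.09 in sedentary knockout muscle, against 9.92, 10.25 and 10.13 in exercised wild-type and 9.95, 10.02 and 9.99 in sedentary wild-type muscle. It lay on the other side: sedentary knockouts were above sedentary wild types without overlap, by 0.21 (SE 0.099, adjusted p = 0.651), and by 0.12 without the highest of them, replicate 1. Psmd14, the deubiquitinase of the lid, had log2 levels of 6.75, 6.77 and 6.88 in exercised knockout and 6.73, 6.68 and 6.59 in sedentary knockout muscle, against 6.62, 6.77 and 6.95 in exercised wild-type and 6.41, 6.77 and 6.66 in sedentary wild-type muscle. Its exercise difference was 0.14 in knockouts, without overlap, and 0.17 in wild types, with overlap. The remaining lid genes, Psmd3, Psmd7, Psmd11, Psmd12 and Psmd13, had exercise differences between −0.03 and 0.10 in knockouts and between −0.05 and 0.05 in wild types on the log2 scale. Members of a single subcomplex thus had genotype differences of opposite sign, none of which passed the test.

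The 3 chaperones that assemble the 19S base, Psmd5, Psmd9 and Psmd10, had a median exercise difference of −0.16 in knockouts and −0.05 in wild types on the log2 scale. Psmd5 had log2 levels of 7.17, 6.98 and 7.34 in exercised knockout and 7.14, 6.93 and 7.17 in sedentary knockout muscle, against 7.17, 7.33 and 7.41 in exercised wild-type and 7.39, 7.43 and 7.22 in sedentary wild-type muscle. Sedentary knockouts were below sedentary wild types without overlap, by a log2 difference of −0.27 (SE 0.117, adjusted p = 0.604). Psmd10, also known as gankyrin, was lower in exercised than in sedentary knockouts without overlap, with a log2 difference of −0.16 (adjusted p = 0.762), and had 0.05 in wild types. The 4 chaperones of the 20S core, Psmg1 to Psmg4, had a median exercise difference of 0.14 in knockouts and 0.08 in wild types. Psmg2 had log2 levels of 7.03, 7.17 and 6.95 in exercised knockout and 6.92, 6.85 and 6.91 in sedentary knockout muscle, against 6.73, 6.94 and 7.001 in exercised wild-type and 6.62, 6.82 and 6.82 in sedentary wild-type muscle. Exercised knockouts were above sedentary knockouts without overlap, and sedentary knockouts above sedentary wild types. Averaged over genotypes, the exercise difference of Psmg2 was 0.15 (SE 0.075, adjusted p = 0.504, n = 6 per side). Psmg4 had an exercise difference of 0.22 in knockouts (adjusted p = 0.77), Psmg3 had 0.13 and Psmg1 had 0.01.

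Among the caps that can replace the 19S particle, Psme4, a large single-chain activator found mostly in the nucleus, had the smallest adjusted p of all members for knockout against wild type after exercise. Its log2 levels were 10.01, 10.18 and 10.14 in exercised knockout and 9.89, 10.04 and 10.005 in sedentary knockout muscle, against 9.53, 9.88 and 9.73 in exercised wild-type and 9.95, 9.92 and 9.86 in sedentary wild-type muscle. After exercise, all knockout arrays were above all wild-type arrays, and the lowest value of all was that of replicate 1 of the exercised wild types. The log2 difference was 0.39 (SE 0.095, 95% interval 0.19 to 0.60, adjusted p = 0.202), a 1.31-fold difference. Without that array it was 0.30 (adjusted p = 0.276). The exercise difference in wild types was −0.20 (SE 0.095, adjusted p = 0.631), and −0.11 without that array. The exercise difference was 0.33 larger in knockouts (SE 0.134, adjusted p = 0.997), and 0.24 larger without that array. Averaged over conditions the knockout difference was 0.23 (SE 0.067, adjusted p = 0.184, n = 6 per side).

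Psme1 and Psme2 encode the alternating subunits of the interferon-inducible cap. Psme2 had log2 levels of 7.03, 6.55 and 6.44 in exercised knockout and 6.27, 6.31 and 6.32 in sedentary knockout muscle, against 6.51, 6.41 and 6.56 in exercised wild-type and 6.49, 6.01 and 6.12 in sedentary wild-type muscle. Exercised arrays were above sedentary arrays without overlap in knockouts and with overlap in wild types, and the difference averaged over genotypes was 0.33 (SE 0.106, adjusted p = 0.177, n = 6 per side). Psme1 had log2 levels of 8.11, 8.09 and 8.10 in exercised knockout and 8.12, 8.22 and 8.11 in sedentary knockout muscle, against 7.96, 8.06 and 8.13 in exercised wild-type and 8.25, 8.24 and 8.13 in sedentary wild-type muscle. It was lower in exercised than in sedentary arrays of both genotypes, with groups that touch at the precision shown, and the exercise difference was −0.05 (SE 0.087) in knockouts and −0.16 (SE 0.087, adjusted p = 0.712) in wild types. The partner subunits of a single cap thus had exercise differences of opposite sign, none of which passed the test. Psme3, which forms the nuclear cap of the same family, had log2 levels of 6.97, 7.13 and 7.16 in exercised knockout and 7.02, 7.11 and 6.90 in sedentary knockout muscle, against 6.88, 7.23 and 7.06 in exercised wild-type and 7.24, 6.999 and 7.24 in sedentary wild-type muscle. All its groups overlapped. Psmf1, an inhibitor of the core in vitro, had exercise differences of −0.05 in knockouts and −0.06 in wild types on the log2 scale. The genes of the interacting proteins outside the complex had −0.08 (Psmc3ip) and −0.14 (Psme3ip1) in knockouts, and −0.14 and −0.05 in wild types, none of which passed the test.

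**Figure D3:**
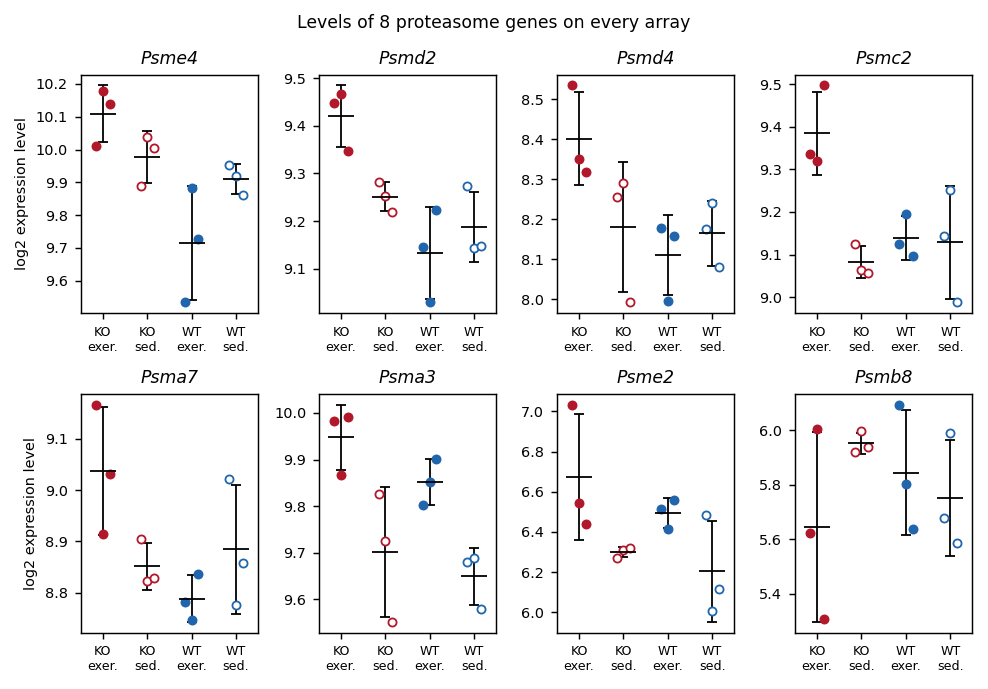
Log2 levels of the proteasome genes named in the panels, with a point per array, and the mean and SD (bars) of each group of 3. Exercised knockout arrays lie above exercised wild-type arrays for Psme4 (10.01 to 10.18 against 9.53 to 9.88) and above all other arrays for Psmd2 and Psmc2.

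Promoters of 4 members are shown because Psme4 and Psmd4 were among the largest differences in exercised knockouts, and Psmb5 and Psmb6 are catalytic subunits. Each is the stretch from 150 bases before to 30 bases after the annotated start, in the sense of the gene, from RefSeq on GRCm38.p6. Capitals mark matches, on either strand, to TGACNNNGC, a core of the antioxidant response element bound by NFE2L1 and NFE2L2, which activate proteasome genes, or to CCAAT, the motif of the factor NF-Y. The Psme4 stretch is chr11:30771625-30771804 on the plus strand, that of Psmd4 is chr3:95042585-95042764 on the minus strand, that of Psmb5 is chr14:54617966-54618145 on the minus strand and that of Psmb6 is chr11:70525207-70525386 on the plus strand.
Psme4: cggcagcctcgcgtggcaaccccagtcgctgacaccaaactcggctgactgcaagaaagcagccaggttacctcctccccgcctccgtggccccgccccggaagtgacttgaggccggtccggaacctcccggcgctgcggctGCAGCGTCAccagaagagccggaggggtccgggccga
Psmd4: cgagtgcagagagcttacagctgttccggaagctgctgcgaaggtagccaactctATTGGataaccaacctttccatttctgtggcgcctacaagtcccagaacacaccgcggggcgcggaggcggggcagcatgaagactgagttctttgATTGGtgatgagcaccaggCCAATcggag
Psmb5: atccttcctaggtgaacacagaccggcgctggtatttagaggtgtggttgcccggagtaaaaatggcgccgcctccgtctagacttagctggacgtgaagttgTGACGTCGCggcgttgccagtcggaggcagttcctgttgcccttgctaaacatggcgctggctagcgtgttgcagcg
Psmb6: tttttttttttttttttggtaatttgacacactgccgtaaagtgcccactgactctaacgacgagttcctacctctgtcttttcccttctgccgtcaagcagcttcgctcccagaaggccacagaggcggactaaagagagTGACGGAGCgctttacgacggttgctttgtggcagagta
Psme4, Psmb5 and Psmb6 each hold a TGACNNNGC match, starting at bases 144, 104 and 142 of the printed stretch, and Psmd4 holds 3 CCAAT matches and none of TGACNNNGC.

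RefSeq promoter windows (250 bases before to 50 after the start) were matched by symbol for 37 of the 44 tested members, as 40 windows. TGACNNNGC was in 6 of the 40 (15%) against 12.4% of all 32851 windows, CCAAT in 13 (32.5%) against 37.4%, and GAANNTTC, a core of the heat shock element, in 3 (7.5%) against 7.86%. All were searched on both strands. The shares of the members were close to those of all promoters, and a match is only a run of letters.

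A list of 32 other genes of the pathway, from receptors and ubiquitin carriers to regulators and muscle ligases, had 23 on the array with a single symbol, and all 23 were tested. Averaged over genotypes, exercise raised 2 of the 23 at an adjusted p under 0.05, against 1.09% of all genes, and lowered 0, against 0.509%, and none was called in the other 6 comparisons. Nfe2l2, a transcription factor of the oxidative stress response, had log2 levels of 8.62, 8.92 and 8.72 in exercised knockout and 8.16, 8.23 and 8.58 in sedentary knockout muscle, against 8.60, 8.75 and 8.76 in exercised wild-type and 7.99, 8.09 and 8.37 in sedentary wild-type muscle. It was higher in exercised arrays without overlap in both genotypes, by 0.49 on average (SE 0.092, adjusted p = 0.0111, n = 6 per side). The Nfe2l2 exercise difference was 0.43 in knockouts and 0.55 in wild types. For Nfe2l1 the difference averaged over genotypes was −0.04 (SE 0.077, adjusted p = 0.917). The part of either factor in the proteasome levels was not tested. Trim63, the muscle ubiquitin ligase also known as MuRF1, had log2 levels of 11.18, 10.56 and 10.27 in exercised knockout and 9.86, 10.10 and 9.47 in sedentary knockout muscle, against 10.37, 9.64 and 10.06 in exercised wild-type and 9.59, 9.26 and 9.09 in sedentary wild-type muscle. It too was higher after exercise without overlap in both genotypes, by 0.79 (SE 0.160, adjusted p = 0.0193, n = 6 per side). The Trim63 call was lost without replicate 2 or 3 of the sedentary wild types (adjusted p = 0.0541 and 0.0542) or replicate 3 of the exercised wild types (0.0535), and without both arrays that stood apart (0.0695). An ordinary linear model called neither gene (adjusted p = 0.117 for Nfe2l2 and 0.219 for Trim63).

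Fbxo32, the other muscle ligase, also called atrogin-1, had log2 levels of 11.74, 11.38 and 11.19 in exercised knockout and 10.66, 11.26 and 10.79 in sedentary knockout muscle, against 10.86, 10.48 and 10.81 in exercised wild-type and 10.91, 10.43 and 10.51 in sedentary wild-type muscle. After exercise the knockout was above wild type without overlap, by 0.72 (SE 0.173), which did not pass the test (adjusted p = 0.198). Nploc4, a cofactor of the ATPase VCP that delivers ubiquitinated proteins, had log2 levels of 9.62, 9.72 and 9.57 in exercised knockout and 9.51, 9.49 and 9.50 in sedentary knockout muscle, against 9.29, 9.48 and 9.33 in exercised wild-type and 9.37, 9.19 and 9.49 in sedentary wild-type muscle. Its difference after exercise was 0.27 with an adjusted p of 0.529. Sem1 had the smallest unadjusted p of the list for knockout against wild type in sedentary muscle. Its log2 difference there was −0.25 (SE 0.095, adjusted p = 0.535). Over the 23 genes the median log2 difference was 0.09 for exercise in knockouts (19 positive), −0.01 for exercise in wild types (10 positive) and 0.11 for knockout against wild type after exercise (18 positive), beside 0.10, 0.006 and 0.09 for the proteasome genes.

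**Figure D4:**
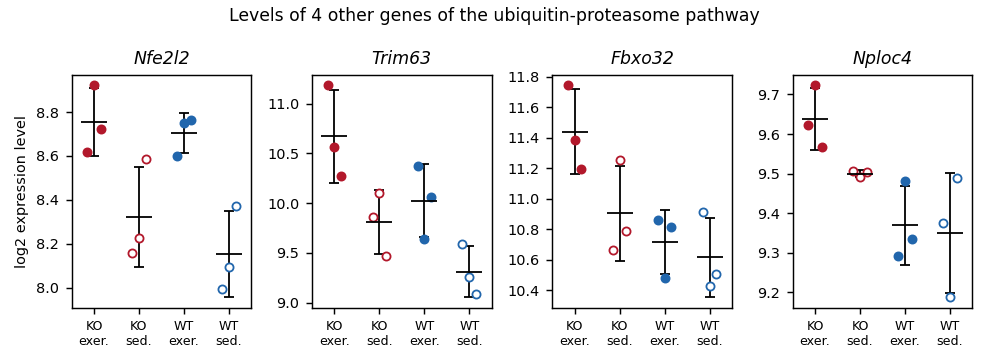
Log2 levels of Nfe2l2, Trim63, Fbxo32 and Nploc4, with a point per array, and the mean and SD (bars) of each group of 3; each panel has its own scale. Exercised arrays lie above sedentary arrays of the same genotype for Nfe2l2 and Trim63, and exercised knockouts above exercised wild types for Fbxo32 and Nploc4.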

How the data were processed

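The authors deposited a table of log2 expression values for 12 arrays. The log base was inferred from the values; the summarisation, background correction and normalisation are not given in the sources used here. Partek is named, without a version, per the submitters' processing notes. Of 41345 rows, 23521 had 1 gene symbol in the platform annotation, 1814 several and 16010 none. Rows with several or none were left out.

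All genes were fitted in R 4.3.3 with limma 3.58.1 (lmFit, eBayes with an intensity trend), with 1 mean per group, 8 residual degrees of freedom and 7 contrasts. P-values are two-sided and were adjusted by Benjamini-Hochberg over 13747 genes within each contrast. The fit was tested on simulated data with independent genes and shifts larger than the difference of any member. That check therefore does not cover small shifts shared by many genes. The number of arrays limits the precision.

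The members and lists were chosen with earlier results of these data known, so no p-value over the list is given. Values on every array are given for the 4 members with the smallest unadjusted p in each contrast, the catalytic and immune catalytic subunits and Psme1 to Psme4. Of the other pathway genes, values on every array are given for Nfe2l2, Trim63, Fbxo32 and Nploc4. Each was called or among the 3 smallest unadjusted p of the list in a comparison. Akirin2, Ngly1, Rad23b, Zfand5 and Sem1 were also among the 3 smallest in a comparison. None of them was called, and their values on every array are not given. Alternatives were other filters, quantile normalisation, centring of each array on its median, the mean of a gene's rows, an untrended prior, an ordinary linear model, a fit per comparison and arrays left out.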

Additional observations from a re-analysis of the deposited data

How the results depend on the processing

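The count of proteasome genes called was 0 in all 7 comparisons under all 144 alternative fits of these counts. Of the 144 alternative values of the member medians, 140 moved by less than 0.0419. That limit was the pooled within-group standard deviation of the array median over the members, and several of the medians were smaller than it. The exceptions were the median difference of exercise effects, 0.0789 as reported, which was 0.0277 after quantile normalisation and 0.0282 without replicate 1 of the exercised wild types and replicate 3 of the sedentary knockouts, and, without replicate 1 of the sedentary knockouts, the same median (0.13) and the median of knockout against wild type in sedentary muscle. With single arrays left out, the median difference of exercise effects ranged from 0.04 to 0.13, and the median of knockout against wild type in sedentary muscle from −0.0294 to 0.0389. The median for exercise in wild types ranged from −0.0285 to 0.0311. Its change of sign stayed within the limit and was counted as not moved. The cause of these changes was not tested. Of the alternative values of named genes, 640 kept their direction and side of the threshold, and 6 lost the call, all of Nfe2l2 or Trim63. The counts without the arrays that stood apart were chosen after seeing the data. No paired analysis was possible because the labels number the samples in a single series and give no replicate number that groups share.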
